A study of Mus musculus with 29 samples.

Results

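Cytochrome P450 genes of families 1 to 4 were taken from the gene table by symbol. A row was a member when its symbol was Cyp followed by a family number from 1 to 4, a subfamily letter and a gene number, and when its expected counts summed to at least 10 over the 29 libraries. Of 24770 rows, 60 had such a symbol and 51 reached the minimum, while 9 fell below it. Family 1 had 3 members, family 2 had 31, family 3 had 4 and family 4 had 13.

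P450 enzymes are haem proteins of the endoplasmic reticulum that insert 1 oxygen atom into their substrate, using electrons passed on by P450 oxidoreductase (Por) and cytochrome b5. Family 1 enzymes are induced through the aryl hydrocarbon receptor (Ahr) and oxidise polycyclic aromatic compounds. Families 2 and 3 hold the main drug-oxidising and steroid-oxidising enzymes of the liver, many of them induced through the nuclear receptors CAR (Nr1i3) and PXR (Nr1i2), and the epoxygenases that act on arachidonic acid. Family 4 enzymes mostly hydroxylate the far end of fatty acid chains, and the Cyp4a genes are targets of the nuclear receptor Ppara. Most members are best known from liver, while Cyp4b1 and Cyp2f2 are known from lung.

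The members were measured by bulk RNA sequencing in brown adipose tissue (BAT) and in the gastrocnemius, a skeletal muscle (SkM), of wild-type male C57BL/6J mice, 1 library a sample. In the control group mice were sedentary and ate freely, in the CR group food was restricted, in the EX group mice ran on a treadmill, and in the CREX group both were applied. Interventions began at 8 weeks of age and ran for 8 weeks, food was cut by 10% each week down to 70% of free intake, running took 1 h on 5 days a week, and all tissue was taken 24 h after the last run and after a 6 h fast. BAT had 3 control, 4 CR, 4 EX and 4 CREX libraries, and SkM had 4, 3, 4 and 3. The labels do not say which BAT and SkM libraries came from the same mouse.

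Library totals were 21047242 to 24919377 counts in BAT and 23050918 to 23425284 in SkM, so that a gene with 3 counts stood at 0.120 to 0.143 CPM, a count divided by the scaled library size, in BAT and at 0.128 to 0.130 in SkM. Levels are CPM scaled within a tissue, intervals given below cover counting error only, and a gene was called in a comparison when its adjusted p was below 0.05 and its fold change above 1.5. The tissue labels fitted the markers: Ucp1, the uncoupling protein of brown adipocytes, had 34392 to 118014 counts in BAT and 0 to 3 in SkM, and 8 muscle fibre genes summed to 4.60 to 5337 CPM in BAT against 96702 to 158304 CPM in muscle. Transcripts of liver cells were present in some libraries of both tissues. Alb, the serum albumin gene of hepatocytes, had 635 to 3884 counts in 7 libraries, namely SkM CR 1 (635), SkM CR 2 (3884), SkM CR 3 (3765), SkM CREX 1 (838), BAT CR 3 (1247), BAT EX 2 (851) and BAT CREX 4 (819), and 0 to 71 counts in the other 22.

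The members that the BAT results turn on most were Cyp2b10 and Cyp4b1, and their promoters are shown for that reason, from base 250 to base 51 before the annotated start (RefSeq, GRCm38.p6). Capitals mark matches to the motifs searched. Cyp2b10 lies at chromosome 7, 25897658 to 25926624 (plus strand), and Cyp4b1 at chromosome 4, 115624698 to 115647721 (minus strand).
Cyp2b10, chr7:25897408-25897607, plus strand: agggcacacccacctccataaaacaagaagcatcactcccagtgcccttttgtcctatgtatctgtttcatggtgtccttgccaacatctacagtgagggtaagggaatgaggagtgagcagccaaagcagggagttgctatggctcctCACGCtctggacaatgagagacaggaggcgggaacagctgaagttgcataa
Cyp4b1, chr4:115647772-115647971, minus strand: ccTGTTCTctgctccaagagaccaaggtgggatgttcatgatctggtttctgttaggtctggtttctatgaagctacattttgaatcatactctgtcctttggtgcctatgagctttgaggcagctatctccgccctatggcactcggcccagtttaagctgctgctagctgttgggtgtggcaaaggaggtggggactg

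The motifs were searched on both strands of the 250 bases before the start. GCGTG, the core bound by the aryl hydrocarbon receptor, was in 2 of the 9 called members with a promoter entry and in 28.2% of 32851 promoters: Cyp2b10 held it 101 and 9 bases before the start, and Cyp2j9 held it 171 bases before. AGGTCA, the half-site of nuclear receptors, was in Cyp2f2 (221 bases before) and Cyp3a11 (162), and in 14.0% of promoters. TGTTCT, the half-site of the glucocorticoid receptor, was in Cyp2d10 (210) and Cyp4b1 (248), and in 16.1% of promoters. The E-box CACGTG, which shares the letters CGTG with GCGTG, was in 0 of the 9 and in 6.02% of promoters. A match is a description of the letters in these windows.

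Many P450 genes lie in tandem clusters of near-identical copies, between which the counting could split reads. All 51 members were matched to RefSeq, 1 of them by synonym (Cyp2c44, listed as Cyp2c23), and 50 had a transcript in GENCODE M21. Of these, 19 shared at least 1 window of 150 bases, the read length, with another gene, and 2 shared over 10% of their windows: Cyp2c40 (29.1%) and Cyp2c67 (13.0%). Among the members named below, Cyp2a5 shared 5.79% with Cyp2a4 and the pseudogene Cyp2a21-ps, Cyp4a10 shared 4.34% with Cyp4a31 and Cyp4a32, and Cyp2d10 shared 6.40% with Cyp2d9 and Cyp2d11, so their values are less certain. Cyp4v3 shared 4.48% with Gm45753 and Cyp4f16 shared 2.77% with Cyp4f37. Cyp2b10, Cyp2e1, Cyp4b1, Cyp2d22, Cyp2j9, Cyp2f2, Cyp3a11, Cyp4a14, Cyp2c44 and Cyp4f13 shared none. The coding sequences of Cyp2a5 and Cyp2a4 were 98.4% identical, those of Cyp4a10 and Cyp4a32 97.2%, and those of Cyp4a10 and Cyp4a31 96.6%. Coding bases 301 to 360 are shown to make the likeness visible, with capitals at positions that differ within a set.
Cyp2a5: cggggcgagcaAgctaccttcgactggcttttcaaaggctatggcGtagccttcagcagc
Cyp2a4: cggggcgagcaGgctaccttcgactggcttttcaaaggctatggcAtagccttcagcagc
Cyp4a10: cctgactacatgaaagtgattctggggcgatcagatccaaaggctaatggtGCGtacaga
Cyp4a31: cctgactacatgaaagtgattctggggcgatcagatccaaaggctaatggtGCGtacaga
Cyp4a32: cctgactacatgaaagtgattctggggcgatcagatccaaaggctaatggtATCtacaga
In this stretch Cyp2a4 differed from Cyp2a5 at 2 positions, Cyp4a32 from Cyp4a10 at 3, and Cyp4a31 from Cyp4a10 at 0.

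Without intervention, 13 of the 14 P450 members tested were higher in BAT than in SkM and 0 were lower, where 60% of all 13797 genes tested were called in either direction. The other 37 members were below the filter on low counts, and among them Cyp4f39 had 0 to 3 counts in BAT control and 3 to 28 in SkM control libraries and was called when any 1 of the BAT control libraries was left out. A member nearly absent from SkM, such as Cyp2b10, passed this filter through its BAT counts and so had to be higher there. The count of 13 is therefore a description that is not read against the share of all genes. Cyp2e1, which oxidises ethanol and acetone, stood at 91.9 ± 21.1 CPM in BAT (SD, n = 3) and 2.19 ± 1.13 CPM in SkM (n = 4), a log2 difference of 5.11 (SE 0.42, adjusted p = 3.34e-05). Cyp4v3, a fatty acid hydroxylase, stood at 55.5 ± 2.78 and 1.80 ± 0.347 CPM (log2 difference 4.67, SE 0.13, adjusted p = 5.75e-11). The phenobarbital-inducible Cyp2b10 had 510 counts over the BAT control libraries and 1 over the SkM control libraries, a ratio of 631 with a 95% counting interval from 113 to 24988. The median log2 difference was 2.30 over the 14 members and 0.00 over all genes tested. Differences of the other 10 called members ranged from 1.01 for Cyp4f17 to 2.90 for Cyp2j6 on the log2 scale, while Cyp2j9, tested but not called, had a fold of 1.15.

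Per kilobase of transcript, Cyp2e1 was the most abundant member in BAT control libraries, at 50.1 ± 11.5 CPM per kb. Cyp2d22 (15.4 ± 0.694), Cyp4v3 (14.6 ± 0.730), Cyp4f13 (13.9 ± 0.569) and Cyp4b1 (12.0 ± 1.20 CPM per kb) followed, and each of these overlapped its neighbour in that order. In the CR group Cyp2e1 reached 87.9 ± 9.08 CPM per kb, Cyp4b1 had moved to the second place with 51.9 ± 3.02, and Cyp2b10 (36.4 ± 12.0) and Cyp2d22 (25.8 ± 2.41) came next and overlapped each other (all n = 4). In SkM control libraries Cyp2d22 led with 5.23 ± 0.693 CPM per kb (n = 4), followed by Cyp4b1 (2.12 ± 0.243) and Cyp4f13 (2.02 ± 0.288), which overlapped. In the SkM CR group Cyp2e1 stood first with 25.4 ± 6.95 CPM per kb (n = 3).

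Members that no later comparison called were mostly low. Cyp1b1, a family 1 enzyme that hydroxylates oestradiol, had 66 to 168 counts in BAT and 6 to 28 in SkM libraries. Cyp2u1, a fatty acid hydroxylase, had 86 to 152 and 14 to 46, and Cyp4f16 had 92 to 140 and 11 to 30. Cyp2r1, a vitamin D 25-hydroxylase, had 7 to 20 counts in BAT and 0 to 4 in SkM, Cyp2s1 had 1 to 12 and 0 to 7, and Cyp4f18 had 2 to 13 and 0 to 7. Cyp4f39 went the other way, with 0 to 3 counts in BAT and 3 to 34 in SkM. Cyp2c70, Cyp2j8, Cyp2t4, Cyp3a13, Cyp4a31, Cyp4a32 and Cyp4f14 had 0 counts in at least 1 library of each tissue, and the highest value among them was 23 counts, for Cyp3a13 in SkM.

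**Figure D1:**
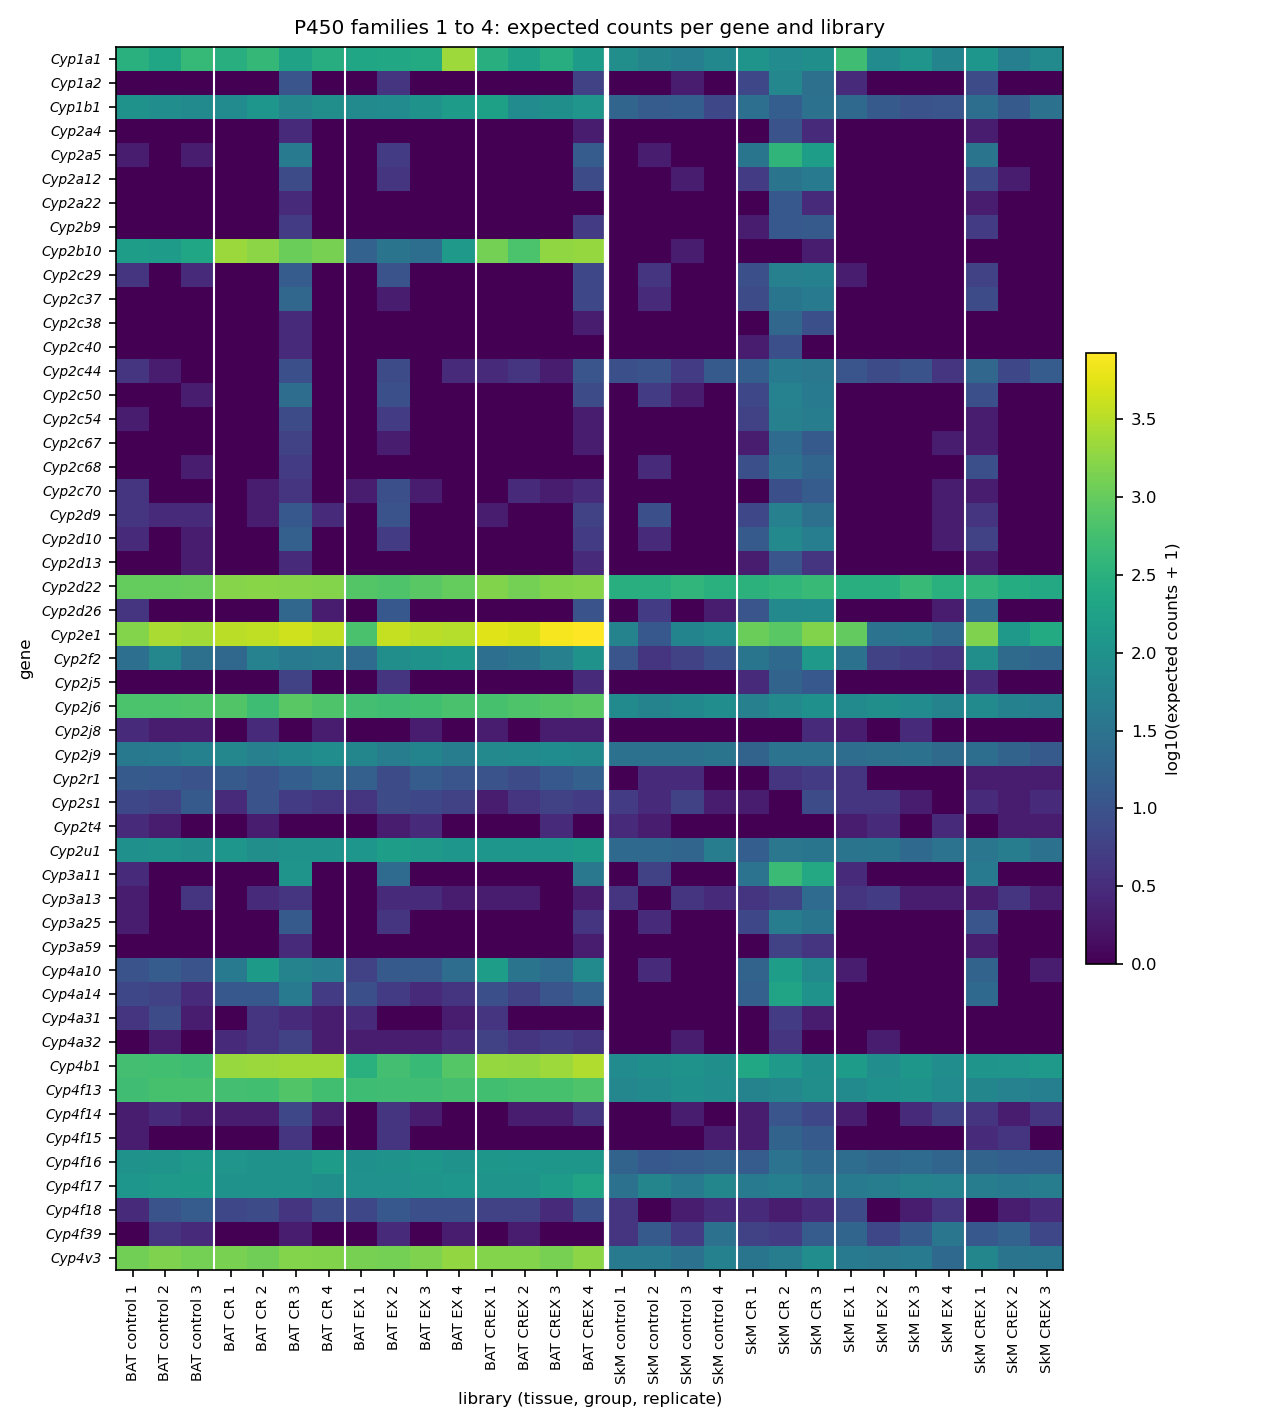
Expected counts of the 51 P450 members (rows) in the 29 libraries (columns), coloured as log10(counts + 1), with thin white lines between groups and a thick one between tissues. Members such as Cyp2e1, Cyp4b1 and Cyp2d22 had counts in every library, while 24 members had over 80% of all their counts in the 7 libraries with more than 500 Alb counts.

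CR raised 6 P450 members in BAT of sedentary mice and lowered 0: Cyp2b10, Cyp4b1, Cyp2d22, Cyp2e1, Cyp4a10 and Cyp2j9. These 6 were among 17 members tested, and the other 34 were below the filter on low counts. Of all 13323 genes tested, 10.7% were called in either direction. Cyp4a10 and Cyp4a14 were low in control libraries and passed this filter through their counts in the CR libraries, which set their direction. The count of 6 is therefore a description that is not read against the share of all genes. The median log2 fold change was 0.15 for the members and 0.00 for all genes. In whole tissue, fewer cells of a type and less RNA per cell cannot be told apart.

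Cyp2b10, known from liver as the main gene induced by phenobarbital through CAR, had 6.78, 5.82 and 8.63 CPM in the control libraries. In the CR libraries it had 93.2, 84.8, 45.1 and 55.7 CPM, all far above every control library. It rose 9.84-fold (log2 3.30, SE 0.34, adjusted p = 0.00220, edgeR quasi-likelihood test with Benjamini-Hochberg adjustment), from 7.08 ± 1.43 CPM (SD, n = 3) to 69.7 ± 23.0 CPM (n = 4). With the sum of 12 hepatocyte markers as a covariate its adjusted p was 0.160. That sum was 336 to 420 CPM in BAT CR and 477 to 520 CPM in BAT control libraries, and Hp alone, which BAT also transcribes, had 233 to 481 CPM over all BAT libraries. Nr1i3, which encodes CAR, had at most 2.19 counts in any BAT library and Nr1i2 at most 1.

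Cyp4b1, which hydroxylates medium-chain fatty acids and some toxic furans, had 25.1, 22.2 and 20.7 CPM in the control libraries and 92.1, 105, 94.9 and 101 CPM in the CR libraries. The groups were separate and the spread within each was narrow. It rose 4.34-fold (log2 2.12, SE 0.09, adjusted p = 9.48e-07), from 22.7 ± 2.27 to 98.1 ± 5.72 CPM. Cyp2d22, the mouse gene often set beside human CYP2D6, had 44.4, 40.6 and 43.1 CPM in control and 70.3, 81.1, 67.9 and 66.4 CPM in CR libraries, with no overlap. It rose 1.67-fold (log2 0.74, SE 0.08, adjusted p = 0.000316).

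Cyp2e1 had 68.4, 109 and 98.0 CPM in control and 143, 171, 179 and 152 CPM in CR libraries. The groups did not overlap, and Cyp2e1 rose 1.75-fold (log2 0.81, SE 0.16, adjusted p = 0.0107), a call that was lost in a fit over all 4 BAT groups (adjusted p = 0.223). Cyp4a10, a fatty acid omega-hydroxylase, had 0.394, 0.522 and 0.370 CPM in control and 1.77, 6.48, 2.34 and 2 CPM in CR libraries. The second CR library stood apart above the other 3, and all 4 were above the control group (log2 2.85, SE 0.57, adjusted p = 0.0118). The call on Cyp4a10 was lost when any 1 of the control libraries was left out. Cyp2j9, of the Cyp2j subfamily, had 1.66, 1.57 and 2.18 CPM in control and 2.85, 2.43, 2.75 and 3.57 CPM in CR libraries (log2 0.69, SE 0.20, adjusted p = 0.0352). Its call was lost without CR 1, CR 4, control 1 or control 2. Cyp4a14, a second omega-hydroxylase of the Cyp4a cluster, had 0.263, 0.201 and 0.0822 CPM in control and 0.476, 0.524, 1.60 and 0.170 CPM in CR libraries, which overlapped (log2 1.92, SE 0.77, adjusted p = 0.110).

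With the hepatocyte sum as a covariate, Cyp4b1 alone kept its call (log2 2.25, adjusted p = 0.00284), and the adjusted p was 0.0513 for Cyp2d22 and for Cyp4a10, 0.280 for Cyp2e1 and 0.738 for Cyp2j9. In BAT that sum separated CR from control without overlap, so this fit cannot tell the covariate from CR. It was also not a measure of Alb: BAT control 2 had 2 Alb counts and a sum of 477 CPM. All 6 calls held with the Alb level as a covariate and without the CR library above 500 Alb counts, where Cyp2b10 had a log2 fold change of 3.45 (adjusted p = 0.000533) and Cyp4b1 of 2.13 (adjusted p = 7.46e-07). Marker sums of other cell types moved with the same comparison in BAT. The sum of 4 fibroblast genes was 170 to 186 CPM in control and 111 to 147 CPM in CR libraries, that of 5 macrophage genes 53.8 to 59.1 and 26.6 to 46.9 CPM, and that of the 8 brown adipocyte genes 13562 to 15345 and 12496 to 13384 CPM. In this last sum Fabp4 had 6785, 7425 and 7500 CPM in control and 7843, 8556, 7311 and 8519 CPM in CR libraries. Ucp1 had 3847, 4740 and 4183 CPM in control and 2056, 1901, 2574 and 1851 CPM in CR libraries. Of the 8 genes, 2 were called lower and 0 higher. Sums of 4 endothelial genes (281 to 318 and 205 to 256 CPM), 4 smooth muscle and pericyte genes (284 to 327 and 195 to 230 CPM) and 5 B and T cell genes (1.11 to 1.61 and 0.0954 to 0.383 CPM) were also lower in every CR library. Their part in the P450 values was not tested.

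**Figure D2:**
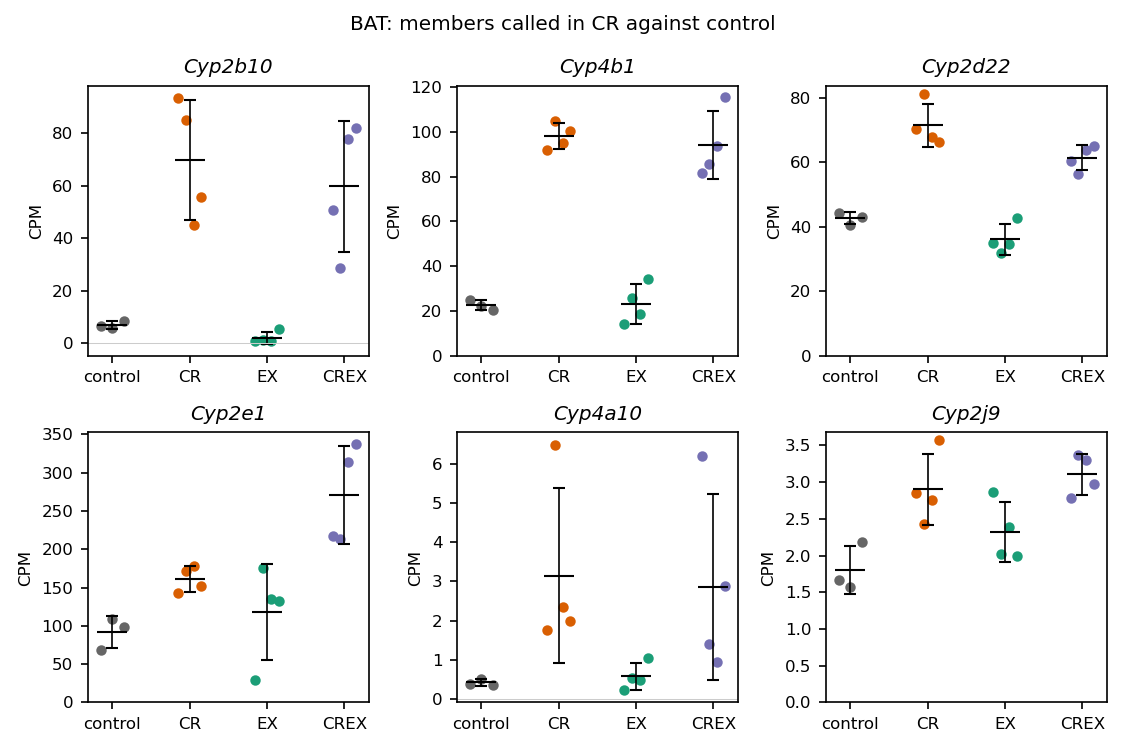
Level in CPM (y axis, from 0) of Cyp2b10, Cyp4b1, Cyp2d22, Cyp2e1, Cyp4a10 and Cyp2j9 in each BAT library of the 4 groups (dots), with the group mean as a bar and the SD as the error bar. Cyp4b1 lay between 14.2 and 34.4 CPM in the control and EX libraries and between 81.8 and 115 CPM in the CR and CREX libraries.

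In trained mice, the comparison of CREX with EX shares no library with the comparison above. CR raised 3 of 16 members tested in BAT and lowered 0, where 4.48% of all 13251 genes were called in either direction, and the median log2 fold change was 0.17 for the members. Cyp4b1 had 14.2, 26.0, 18.5 and 34.4 CPM in EX and 81.8, 85.4, 93.7 and 115 CPM in CREX libraries. The groups were again separate, with a log2 fold change of 2.01 (SE 0.28, adjusted p = 0.00800). Cyp2d22 had 34.9, 31.8, 34.8 and 42.8 CPM in EX and 60.4, 56.4, 63.8 and 65.1 CPM in CREX libraries (log2 0.77, SE 0.10, adjusted p = 0.00255). Cyp2b10 had 0.740, 1.43, 1.03 and 5.6 CPM in EX and 50.8, 28.7, 77.7 and 81.7 CPM in CREX libraries. EX 4 stood apart from the other EX libraries, and Cyp2b10 rose by 4.75 on the log2 scale (SE 0.74, adjusted p = 0.0171). Without EX 2 and CREX 4, the BAT libraries of these groups above 500 Alb counts, Cyp2d22 kept its call (log2 0.69, adjusted p = 0.0274), while Cyp2b10 (log2 4.41, adjusted p = 0.127) and Cyp4b1 (log2 1.96, adjusted p = 0.0719) lost theirs with 3 libraries a group. Without EX 2 alone Cyp2b10 had an adjusted p of 0.0565. Marker sums of other cell types separated EX from CREX as well, with 185 to 571 and 130 to 147 CPM for fibroblast, 250 to 293 and 208 to 247 CPM for endothelial, 255 to 305 and 185 to 244 CPM for smooth muscle and pericyte, and 0.829 to 1.34 and 0.124 to 0.354 CPM for B and T cell genes. Their part was not tested.

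Among members not called in trained BAT, Cyp2e1 had 29.4, 175, 135 and 133 CPM in EX and 217, 214, 314 and 337 CPM in CREX libraries. Its groups did not overlap, but EX 1 lay far below the other EX libraries (log2 1.20, SE 0.52, adjusted p = 0.211). Without EX 1 Cyp2e1 was called, at a log2 fold change of 0.88 (adjusted p = 0.0406). Cyp4a10 had 0.231, 0.552, 0.493 and 1.04 CPM in EX and 6.20, 1.42, 0.951 and 2.90 CPM in CREX libraries, and these overlapped (log2 2.29, SE 0.68, adjusted p = 0.0782).

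Running was compared with its sedentary control with and without CR. In BAT, 0 of 16 members were called in EX against control (0% of 13407 genes, 2 members at an unadjusted p under 0.05, 0 by DESeq2) and 0 of 17 in CREX against CR (0.00763% of 13112 genes, 2 members at an unadjusted p under 0.05, 1 by DESeq2). Cyp2b10 was lower in 4 of 4 EX libraries than in any control library (log2 -1.68, SE 0.71, adjusted p = 0.690), and without EX 4 it was called lower (log2 -2.73, adjusted p = 0.0297). Cyp2e1 was higher in all 4 CREX libraries than in any CR library (log2 0.74, SE 0.16, adjusted p = 0.385), and DESeq2 called it (adjusted p = 0.00185). Cyp4b1 differed by -0.06 between CREX and CR on the log2 scale. The interaction of CR and EX called 0 of 18 members in BAT (0% of 13922 genes, 1 member at an unadjusted p under 0.05, 0 by DESeq2).

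Cyp1a1, a target of the aryl hydrocarbon receptor, had 13.7, 8.07 and 17.8 CPM in BAT control, 12.5, 19.8, 7.60 and 12.1 CPM in CR and 12.1, 7.92, 11.4 and 5.67 CPM in CREX libraries. In the EX group it had 9.34, 10, 10.4 and 97.3 CPM, so that EX 4 alone lay far above all other BAT libraries, and EX was not called against control (log2 1.28, SE 1.13, adjusted p = 0.810). Several members varied little across the 4 BAT groups and were called in no BAT comparison. Cyp2j6, an epoxygenase, ranged from 22.8 to 34.2 CPM over the 15 libraries. Cyp4f13, of the Cyp4f subfamily of fatty acid and leukotriene hydroxylases, ranged from 21.4 to 30.3 CPM. Cyp4v3 lay between 53.4 and 70.3 CPM in 14 libraries and at 84.9 CPM in EX 4.

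**Figure D3:**
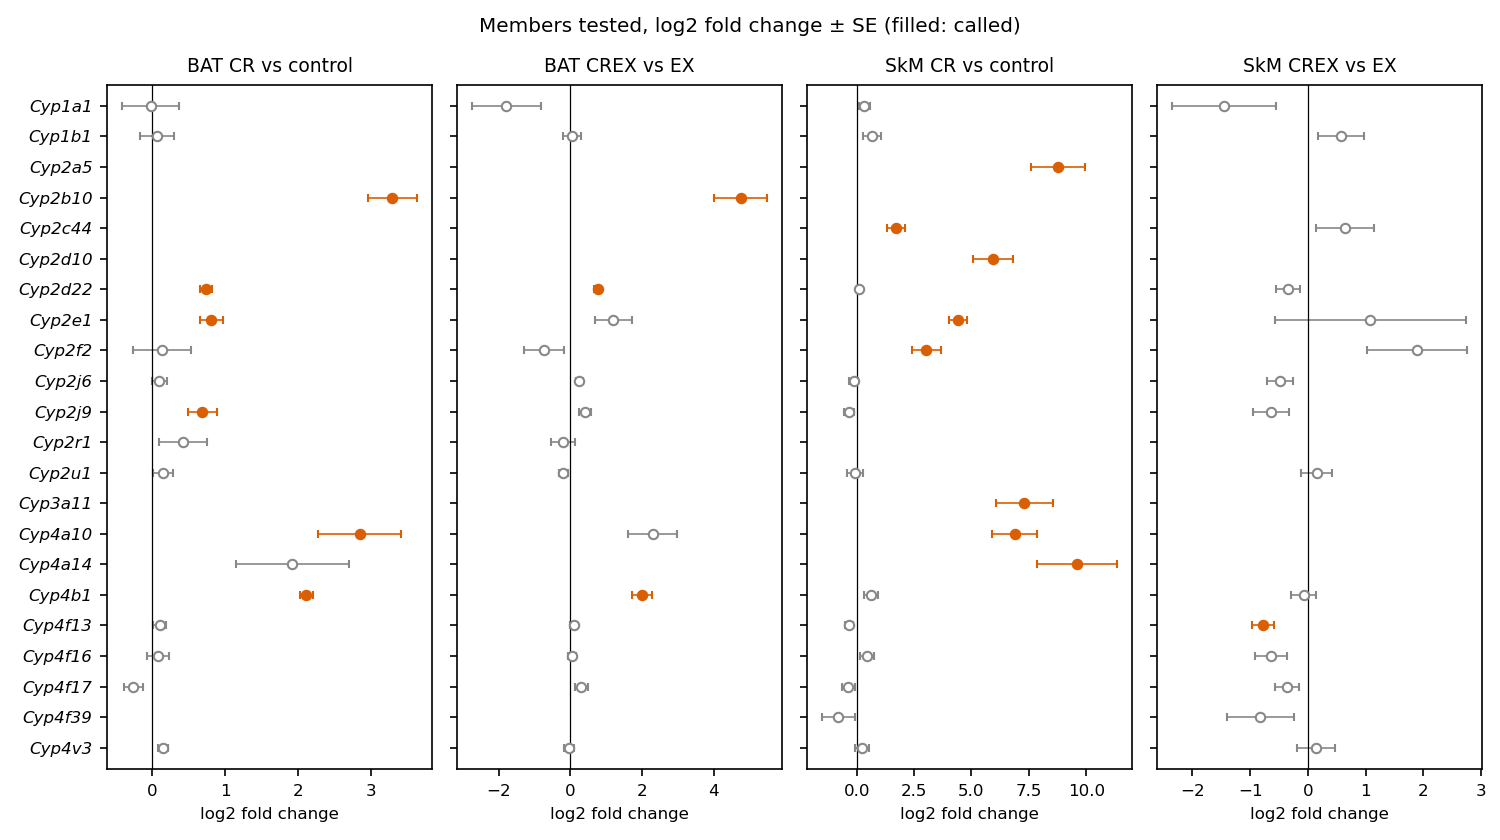
Log2 fold change (x axis, each panel with its own scale) with its SE for the P450 members tested in 4 comparisons: CR against control and CREX against EX in BAT, and the same in SkM. Filled orange points were called (adjusted p below 0.05 and fold above 1.5) and open grey points were not, with 6 and 3 called members in BAT and 8 and 1 in SkM.

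In SkM of sedentary mice, CR raised 8 of 20 members tested and lowered 0: Cyp2e1, Cyp2a5, Cyp3a11, Cyp4a14, Cyp4a10, Cyp2d10, Cyp2f2 and Cyp2c44. Of all 13173 genes tested, 9.6% were called in either direction. Apart from Cyp2e1, the other 7 called members did not pass the filter on low counts in SkM EX against control. They were tested because of their counts in the CR libraries and so had to be higher there, and the count of 8 is a description that is not read against the background. Without CR 1 the count was 22. All 3 SkM CR libraries were above 500 Alb counts and all 4 control libraries were not, so CR and the presence of hepatocyte transcripts cannot be told apart in this comparison. The sum of 12 hepatocyte genes was 69.3 to 311 CPM in CR and 7.64 to 12.2 CPM in control libraries. With that sum as a covariate all 8 calls were lost and 1 other member, Cyp4b1, was called, and with the Alb level as a covariate 0 members were called. The endothelial sum was 124 to 166 CPM in CR and 198 to 263 CPM in control libraries, and the muscle fibre sum 113297 to 158304 and 96702 to 108445 CPM, without overlap in either, and their part was not tested.

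Cyp2e1 had 2.59, 0.512, 2.68 and 2.98 CPM in control and 49.2, 32.7 and 57.8 CPM in CR libraries. The groups were far apart, at 2.19 ± 1.13 (SD, n = 4) and 46.6 ± 12.7 CPM (n = 3), and Cyp2e1 rose 21.2-fold (log2 4.40, SE 0.39, adjusted p = 0.000320). In a fit over all 4 SkM groups its adjusted p was 0.0650. Cyp2f2, known from lung as an enzyme that activates naphthalene, had 0.463, 0.140, 0.227 and 0.331 CPM in control and 1.47, 0.821 and 4.90 CPM in CR libraries (log2 3.03, SE 0.63, adjusted p = 0.0113). Cyp2c44, an arachidonic acid epoxygenase, had 0.370, 0.419, 0.182 and 0.496 CPM in control and 0.622, 1.64 and 1.37 CPM in CR libraries (log2 1.72, SE 0.41, adjusted p = 0.0196). Both were higher in every CR library than in any control library. The call on Cyp2c44 was lost without CR 2, CR 3 or control 3.

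The other 5 called members were at or near 0 in control SkM. Cyp3a11, the main drug-oxidising P450 of mouse liver, had 0, 0.233, 0 and 0 CPM in control and 1.33, 18.5 and 9.03 CPM in CR libraries (log2 7.31, SE 1.25, adjusted p = 0.00928). Cyp4a14 had 15, 194 and 105 counts in CR libraries and 0 in all 4 control libraries, at least 125.5-fold higher when the control group is set at 3 counts in all (adjusted p = 0.0253). The lower 95% counting limit of its ratio was 101, and the call was lost without CR 3. Cyp2a5, the coumarin hydroxylase, had 33, 365 and 151 counts in CR libraries and 1 count over the control group, a ratio of 658 with a 95% counting interval from 118 to 26052 (adjusted p = 0.00205). In each of these the first CR library was the lowest and the second the highest. Cyp4a10 had 17, 155 and 76 counts in CR libraries and 2 over the control group, a ratio of 149 (interval 40.7 to 1235, adjusted p = 0.00211). Cyp2d10, a hepatic member of the Cyp2d cluster, had 12, 70 and 47 counts and 2, a ratio of 77.4 (interval 21 to 646, adjusted p = 0.00197). The order of the 3 CR libraries was the same as for Cyp3a11, and the intervals cover counting error only.

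The level of Alb in single libraries ran alongside many members in both tissues. After the values had been seen, the share of each member's counts in the 7 libraries above 500 Alb counts was computed, and these are 24.1% of all libraries. For 24 of the 51 members the share was over 80%, from 84.0% to 100%: Cyp1a2, Cyp2a4, Cyp2a5, Cyp2a12, Cyp2a22, Cyp2b9, Cyp2c29, Cyp2c37, Cyp2c38, Cyp2c40, Cyp2c50, Cyp2c54, Cyp2c67, Cyp2c68, Cyp2d9, Cyp2d10, Cyp2d13, Cyp2d26, Cyp2j5, Cyp3a11, Cyp3a25, Cyp3a59, Cyp4a14 and Cyp4f15. Summed over these 24, counts were 93 to 1712 in the 7 libraries and 0 to 33 in the other 22, with no overlap, and no single one of them exceeded 11 counts in any of the 22. This group was chosen on these values and has no test. The share of the other 27 members ranged from 5.26% for Cyp2t4 to 77.8% for Cyp2c70, and was 24.7% for Cyp2b10, 27.0% for Cyp4b1, 23.5% for Cyp2d22 and 33.1% for Cyp2e1, close to the share of libraries for the first 3. These shares pool both tissues. In BAT alone, 3 of 15 libraries were above the limit. Among the 24 members the BAT share was 44.0% for Cyp4a14, which had counts in all 12 other BAT libraries, and 69.4% for Cyp2d9. For the rest of the 24 the BAT share was 80% to 100%. In SkM alone, 4 of 14 libraries were above the limit. There the share was 75.0% for Cyp2e1, 98.5% for Cyp4a10, 71.6% for Cyp2f2 and 34.8% for Cyp4b1.

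**Figure D4:**
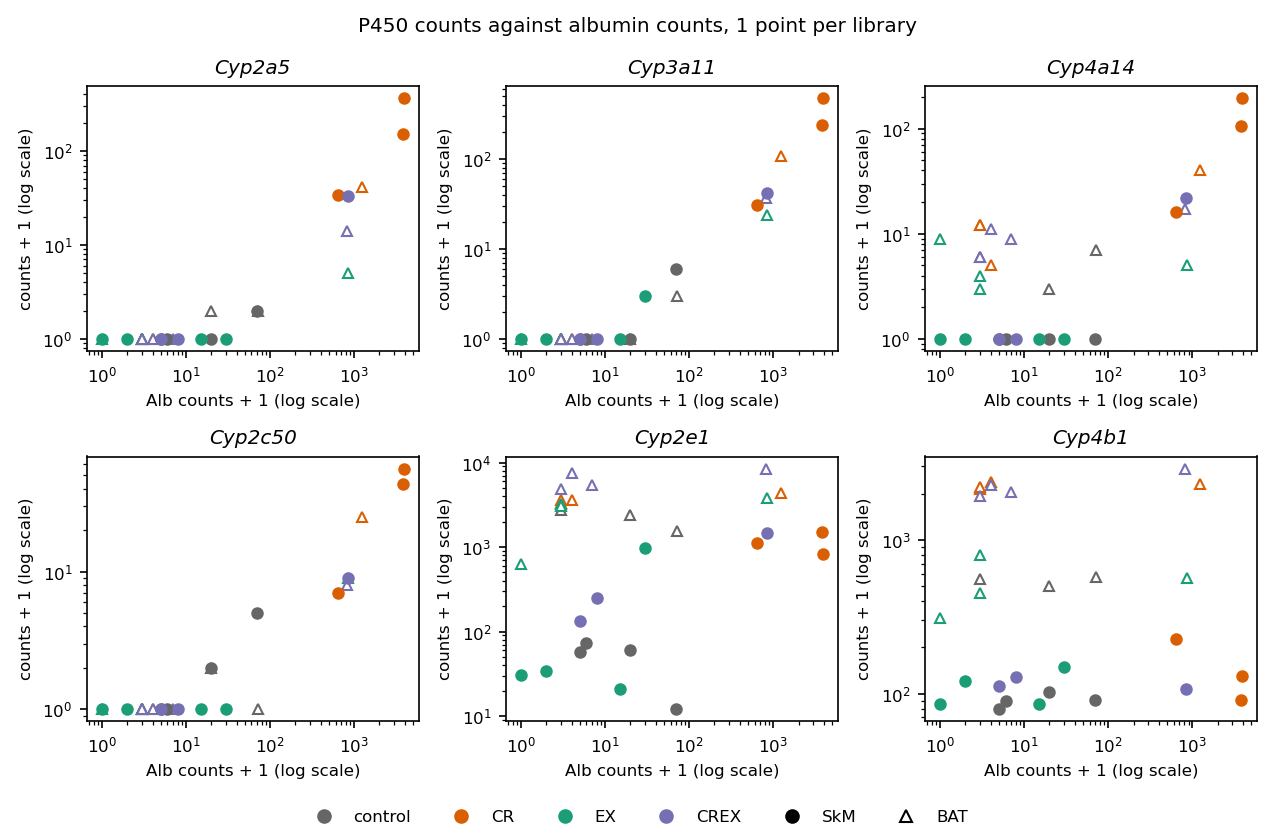
Expected counts + 1 of 6 members (y axis, log scale) against Alb counts + 1 (x axis, log scale) in the 29 libraries, circles for SkM and open triangles for BAT, coloured by group. Over both tissues Cyp2a5, Cyp3a11, Cyp4a14 and Cyp2c50 had over 80% of their counts in the 7 libraries to the right, above 500 Alb counts. Among BAT libraries alone Cyp4a14 had 44.0% there. Over both tissues Cyp2e1 and Cyp4b1 had 33.1% and 27.0% there, and among SkM libraries alone 75.0% and 34.8%.

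Some adipocyte markers also differed among SkM libraries. Adipoq, the adiponectin gene of adipocytes, had 38, 0, 10 and 23 counts in control, 226, 22 and 351 in CR, 282, 5, 6 and 3 in EX and 356, 22 and 86 in CREX libraries. Cyp2e1 had 56, 11, 59 and 72 counts in control, 1108, 836 and 1522 in CR, 983, 30, 33 and 20 in EX and 1480, 134 and 247 in CREX libraries. EX 1 and CREX 1 were the highest library of their group for both genes, while CR 2 was low in Adipoq and had 836 counts of Cyp2e1. Plin1, the lipid droplet coat protein of adipocytes, had 96 counts in EX 1 and 104 in CREX 1, and 1 to 12 in the other EX and CREX libraries. Other adipocyte genes varied less. Fabp4 had 4049 counts in EX 1 and 4147 in EX 3, and 4348 in CREX 1 against 1853 and 2490 in CREX 2 and CREX 3. Cidea had 10 to 28 counts over all SkM libraries. The sum of the 8 brown adipocyte genes overlapped between control (177 to 233 CPM) and CR libraries (167 to 218 CPM). The brown adipocyte gene Ucp1 was at 0 to 3 counts in all SkM libraries. The part of adipocytes in the Cyp2e1 values was not tested.

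In trained SkM, CREX against EX called 1 of 15 members, where 8.87% of all 13112 genes were called in either direction, and the median log2 fold change of the members was -0.34. Cyp4f13 had 3.19, 4.17, 4.41 and 3.61 CPM in EX and 2.57, 2.24 and 1.98 CPM in CREX libraries. The groups did not overlap, and Cyp4f13 fell by 0.77 on the log2 scale (SE 0.19, adjusted p = 0.0308), from 3.85 ± 0.552 (SD, n = 4) to 2.26 ± 0.295 CPM (n = 3). The call was lost when any 1 of the libraries other than CREX 1 was left out, and without CREX 1 the count was 3, with Cyp2j6 and Cyp2j9 called besides Cyp4f13. The endothelial sum was 202 to 249 CPM in EX and 88.7 to 180 CPM in CREX libraries, and the B and T cell sum 0.135 to 0.469 and 0.0809 to 0.0828 CPM, and their part was not tested. Cyp2e1 had 44.1, 1.35, 1.49 and 0.938 CPM in EX and 60.4, 5.55 and 9.99 CPM in CREX libraries, which overlapped (log2 1.08, SE 1.66, adjusted p = 0.694). Cyp2a5, Cyp3a11 and Cyp4a14 were at 0 in CREX 2 and CREX 3 and at 1.31, 1.67 and 0.857 CPM in CREX 1, the 1 CREX library above 500 Alb counts.

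The running comparisons called no member in SkM either. EX against control called 0 of 13 members (0.0775% of 12907 genes, 1 member at an unadjusted p under 0.05, 0 by DESeq2), and CREX against CR called 0 of 22 (0% of 13068 genes, 7 members at an unadjusted p under 0.05, 4 by DESeq2). In the second of these the fitted log2 difference was -4.03 for Cyp2a5, -4.11 for Cyp3a11 and -0.86 for Cyp2e1, each with an adjusted p of 0.999. Members such as Cyp2a5 and Cyp3a11 were tested there because of their counts in the CR libraries, all above 500 Alb counts. They had to be lower in CREX, so the counts of members for CREX against CR are a description only. Without CREX 1, Cyp2e1 was called lower in CREX (log2 -2.62, adjusted p = 0.0226). The interaction called 0 of 22 members in SkM (0% of 13610 genes, 1 member at an unadjusted p under 0.05, 0 by DESeq2). Cyp1a1 lay between 1.99 and 5.04 CPM in 13 SkM libraries and at 23.6 CPM in EX 1.

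The response to CR was then compared between the tissues, as the log2 fold change in BAT minus that in SkM. In sedentary mice 4 of 28 members differed, where 7.58% of 14369 genes did. Members such as Cyp2a5 and Cyp3a11 were tested because of their counts in the SkM CR libraries, which set their direction. The count is therefore a description that is not read against the share of all genes. Cyp4b1 responded more strongly in BAT, by 1.51 (SE 0.34, adjusted p = 0.0175), with 3.61, 4.19, 4.59 and 3.68 CPM in SkM control and 10, 5.09 and 3.42 CPM in SkM CR libraries, which overlapped. Cyp2d22 differed by 0.64 (SE 0.14, adjusted p = 0.0132) and ranged from 13.0 to 17.3 CPM over both SkM groups. Cyp2j9 differed by 1.03 (SE 0.30, adjusted p = 0.0467), a call lost in 11 of the 14 fits that left out 1 library. Cyp2e1 responded more strongly in SkM, with a difference of -3.58 (SE 0.47, adjusted p = 0.00116), in the comparison where all SkM CR libraries held Alb.

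In trained mice 3 of 19 members differed between the tissues, where 5.58% of 14410 genes did. Cyp4b1 (2.10, SE 0.38, adjusted p = 0.0101) and Cyp2d22 (1.11, SE 0.23, adjusted p = 0.0148) again responded more strongly in BAT. Cyp4f13 differed by 0.87 (SE 0.18, adjusted p = 0.0148), with a log2 fold change of 0.09 in BAT and -0.77 in SkM. All 3 calls held without the libraries above 500 Alb counts, where the differences were 1.98 for Cyp4b1, 1.26 for Cyp2d22 and 0.95 for Cyp4f13.

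Genes that serve or regulate P450 enzymes were described from a list of 32, of which 28 were tested. In BAT, 4 rose with CR in sedentary mice and 4 in trained mice, and 0 fell, where 10.7% and 4.48% of all genes tested were called in either direction. The median log2 fold change of the list was 0.18 and 0.12. Fmo2, a flavin monooxygenase, rose by 1.59 and 1.57 on the log2 scale (adjusted p = 0.000538 and 0.000462), Cyb5a, which encodes cytochrome b5, by 0.81 and 0.65 (adjusted p = 0.000342 and 0.0222), and Cyb5r3, its reductase, by 0.73 and 0.61 (adjusted p = 0.000682 and 0.00484). Ephx1, the microsomal epoxide hydrolase, rose in sedentary mice (log2 0.85, adjusted p = 0.0178) and Fmo1 in trained mice (log2 0.67, adjusted p = 0.00560). The electron donor Por had log2 fold changes of -0.08 and 0.03 (adjusted p = 0.558 and 0.897), and Ppara of -1.02 and -0.54 (adjusted p = 0.0627 and 0.238).

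In SkM, 2 genes of the list rose and 2 fell with CR in sedentary mice, and 1 rose and 2 fell in trained mice, where 9.6% and 8.87% of all genes tested were called. Cyb5a (log2 0.60, adjusted p = 0.0379) and Fmo2 (log2 1.09, adjusted p = 0.00107) rose with CR in sedentary mice. Dbp, a clock-controlled transcription factor, fell by 0.85 (adjusted p = 0.0151), and Ephx2, the soluble epoxide hydrolase, fell by 0.65 (adjusted p = 0.00355). In trained SkM, Nr3c1, the glucocorticoid receptor, rose by 0.63 (adjusted p = 0.0386), while Dbp fell by 1.83 (adjusted p = 0.00335) and Ephx1 fell by 0.61 (adjusted p = 0.0347). The running comparisons called 0 genes of this list by edgeR, and at an unadjusted p under 0.05 were 8 of 28 in BAT EX against control, 1 in BAT CREX against CR, 4 in SkM EX against control and 3 in SkM CREX against CR. Between control groups, 15 of its genes were higher in BAT and 6 in SkM, where 60% of all genes tested were called. Of 17 genes from other P450 families 6 were tested. Cyp51, the lanosterol demethylase of cholesterol synthesis, rose with CR in BAT of sedentary (log2 0.77, adjusted p = 0.0242) and trained mice (log2 0.59, adjusted p = 0.0329), and Cyp39a1, an oxysterol hydroxylase, fell in SkM of both (log2 -0.73, adjusted p = 0.0248, and log2 -0.68, adjusted p = 0.0453).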

How the data were processed

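Gene expression was measured in 29 libraries of mouse BAT and gastrocnemius, read as 150-base pairs. According to the submitters' processing notes and the study's methods, the authors trimmed reads with trim-galore, aligned them to mm10 with STAR (2.7.10a) and estimated expected counts per gene with RSEM. The notes name RSEM version 1.2.28 and the methods name another version. The annotation is not given in the sources used here. The deposited table held these expected counts for 24770 rows, including 27 symbols turned into dates and 2 duplicated symbols. It was used as deposited, with values rounded to whole numbers for the tests. Fractional values occurred in 2 of the 51 members.

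Samples were grouped by their labels. Libraries of a group were separate samples, and 0 of 39 pairs were identical. Each comparison of 2 groups was fitted on those groups alone with edgeR (4.0.16, R 4.3.3), using TMM scaling, its default filter on low counts and the robust quasi-likelihood test. The standard error was the log2 fold change divided by the square root of F. P-values were adjusted by the Benjamini-Hochberg method over all genes tested. Interactions, and differences of the CR response between tissues, were called at an adjusted p below 0.05 alone. Because a member passed the filter only where its counts allowed, members not tested are not shown to be unchanged. Low counts limit precision: 3 counts are about the smallest level told from 0. The script recovered fold changes in simulated counts before use.

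Members and gene lists were chosen with earlier results of these data known. Genes named in the text included the called members, the most abundant members and those standing apart in 1 library, plus called genes of the lists. Some members and list genes outside these groups, such as Cyp1b1, Cyp2c29, Por and Ppara, were also named with values. DESeq2 (1.42.0), other scaling, no filter, a replicate block, 1 fit per tissue and leaving out each library were alternatives. Leaving out libraries above 500 Alb counts, and using the hepatocyte sum or Alb level as a covariate, were added after the data had been seen. Sequences and positions came from RefSeq tables of GRCm38.p6 and transcripts of GENCODE M21.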

Additional observations from a re-analysis of the deposited data

Results flagged for a closer look

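Of 67 sets of 4 libraries of a group, 15 had 1 library far from the other 3 by Dixon's test, which chance gives in about 1 in 20. In BAT EX 4, Cyp1a1 was at 97.3 CPM (the others 9.34 to 10.4), Cyp2b10 at 5.6 (0.740 to 1.43), Cyp4v3 at 84.9 (59.0 to 60.6) and Cyp4f17 at 4.95 CPM (4.40 to 4.47). In SkM EX 1, Cyp2e1 was at 44.1 CPM (0.938 to 1.49), Cyp1a1 at 23.6 (2.72 to 5.04) and Cyp2f2 at 1.30 CPM (0.141 to 0.224). In BAT CR 3, Cyp3a11 was at 4.35, Cyp2a5 at 1.64 and Cyp2d10 at 0.616 CPM, and the other 3 CR libraries were at 0 for each. In BAT CREX 4, Cyp3a11 was at 1.43 and Cyp2a5 at 0.516 CPM, and in BAT EX 2 Cyp3a11 was at 1.06 CPM, again with 0 in the others. These 3 BAT libraries were the ones above 500 Alb counts. Cyp4a10 was at 6.48 CPM in BAT CR 2 (1.77 to 2.34 in the others). Cyp2e1 was low in SkM control 2, at 0.512 CPM (2.59 to 2.98).

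The CR response differed between the tissues by a test of the difference itself for Cyp4b1 (1.51 in sedentary and 2.10 in trained mice, log2 BAT minus SkM), Cyp2d22 (0.64 and 1.11), Cyp2j9 (1.03, sedentary), Cyp2e1 (-3.58, sedentary) and Cyp4f13 (0.87, trained).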

How the results depend on the processing

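Counts of called members stayed within 1.5 times of the value given in 78 combinations of comparison and alternative, other than leaving out 1 library, and moved beyond it in 14. DESeq2 called 21 members in SkM CR against control, 4 in SkM CREX against CR, 1 in BAT CREX against CR, and 7 (sedentary) and 5 (trained) for the CR response between tissues. Without the filter on low counts, 20 were called in SkM CR against control and 20 between control tissues. Without libraries above 500 Alb counts, 1 was called in BAT CREX against EX, 3 in SkM CREX against EX and 5 for the trained tissue difference. With the hepatocyte sum as covariate, 1 was called in BAT CR against control and 1 in SkM CR against control. With the Alb level as covariate, 0 were called in SkM CR against control and 2 in SkM CREX against EX. In SkM CR against control, Cyp2c44 changed sign to -0.91 (adjusted p = 0.648) and Cyp3a11 to -0.018 (adjusted p = 0.984) with the hepatocyte sum, and to -0.45 (adjusted p = 0.879) and -1.15 (adjusted p = 0.733) with Alb. The cause was not tested. SkM CR against control could not be fitted without the libraries above 500 Alb counts.

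Leaving out 1 library gave 4 to 6 called members in BAT CR against control, 2 to 4 in BAT CREX against EX, 0 to 1 in BAT EX against control and 0 to 0 in BAT CREX against CR and in both interactions. It gave 7 to 22 in SkM CR against control (22 without CR 1), 0 to 3 in SkM CREX against EX (3 without CREX 1), 0 to 0 in SkM EX against control, 0 to 1 in SkM CREX against CR, 13 to 15 between control tissues, and 3 to 4 (sedentary) and 3 to 5 (trained, 5 without SkM CREX 1) for the tissue difference. Replicate numbers were shared between groups of different mice, and the mean correlation of same-numbered deviations was -0.26 to 0.17, with no comparison in which every pair was over 0.1. With the number as a replicate block, 4 members were called in BAT CR against control (Cyp2j9 and Cyp2b10 lost, the latter with an adjusted p of 0.0536), 3 in BAT CREX against EX, 8 in SkM CR against control, 1 in SkM CREX against EX (Cyp2f2 in place of Cyp4f13) and 4 for the sedentary tissue difference (Cyp4a10 in place of Cyp2j9), and no other count changed.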

Other observations

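Counts of members per 1000 Alb counts, computed after the values had been seen, are given for the 7 libraries above 500 Alb counts, in the order SkM CR 1 to 3, SkM CREX 1, BAT CR 3, BAT CREX 4 and BAT EX 2. Cyp2c29 had 12.6, 12.9, 14.1, 5.97, 10.4, 7.33 and 10.6, the narrowest range of these 4 members. Cyp3a11 had 47.2, 122, 63.2, 48.9, 85.0, 44.0 and 27.0. Cyp2a5 had 52.0, 94.0, 40.1, 38.2, 32.1, 15.9 and 4.70, and Cyp4a14 had 23.6, 49.9, 27.9, 25.1, 31.3, 19.5 and 4.70. For Cyp3a11, Cyp2a5 and Cyp4a14 the EX library was the lowest and SkM CR 2 the highest. These are values of single libraries and carry no test.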
